A study of Mus musculus with 24 samples.

Results

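The genes described are the SoxB and SoxC members of the Sox family: Sox1, Sox2, Sox3, Sox14 and Sox21 (SoxB) and Sox4, Sox11 and Sox12 (SoxC), 8 of 21883 protein-coding genes placed on the mm10 assembly by RefSeq. They were chosen by family and not by their signal, though with earlier results of these data known. CUT&RUN, in which an antibody directs a nuclease to cut DNA beside its target, was carried out on kidney cells with an antibody to the transcription factor Sox9 and, as the positive control, with one to H3K4me3, a histone mark of active promoters. All mice were males of genotype Sox9IRES-CreERT2/+:R26RtdT/+, aged 9 to 12 weeks and weighing 25 to 30 g, that had undergone bilateral ischaemia-reperfusion injury with tamoxifen given at the injury. In these mice 1 Sox9 allele carries an inducible Cre recombinase, so cells with Sox9 activity around the injury, and their descendants, keep a red tdTomato label. Labelled cells were sorted 48 h or 10 days after injury, with 4 biological replicates at each time. No uninjured or unlabelled group enters the comparisons. Pellets of about 100000 cells were fixed in 0.2% PFA, frozen and divided into 3 aliquots for Sox9, H3K4me3 and input, so a Sox9 and an H3K4me3 library of the same time and number share a pellet. The times were taken from the titles, since the cell type label names day 10 for all samples. The 8 inputs served as the controls of the peak calls and were not analysed here on their own.

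Sox proteins bind DNA through an HMG box that recognises short A- and T-rich sequences. Sox1, Sox2 and Sox3 (SoxB1) are activators that keep neural progenitors undifferentiated, and Sox2 also maintains pluripotent cells. Sox14 and Sox21 (SoxB2) are mainly repressors that act against SoxB1 in the nervous system. Sox4, Sox11 and Sox12 (SoxC) are activators in many embryonic progenitors, including those of the kidney, and Sox4 and Sox11 are known to be induced in injured tubules. RNA was not measured here, so the data speak of peaks at these genes and not of their expression.

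Promoter sequence was examined first, because the members share features there that the choice by family did not use. RefSeq promoter windows of GRCm38.p6, the assembly behind mm10, were given for 7 of the 8 genes. The 250 bases before the start are shown for Sox12, Sox1 and Sox14, whose promoter windows were overlapped by peaks, for Sox2, the member with a Sox motif, and for Sox4, which had the fewest CpG dinucleotides. They lie at chr2:152398047-152398296 (minus strand, Sox12), chr8:12395269-12395518 (plus strand, Sox1), chr9:99876171-99876420 (minus strand, Sox14), chr3:34649745-34649994 (plus strand, Sox2) and chr13:28953700-28953949 (minus strand, Sox4). Each is written 5′ to 3′ along its gene, and capitals mark the letters of the 4 motifs described in the next paragraph, on either strand.
Sox12: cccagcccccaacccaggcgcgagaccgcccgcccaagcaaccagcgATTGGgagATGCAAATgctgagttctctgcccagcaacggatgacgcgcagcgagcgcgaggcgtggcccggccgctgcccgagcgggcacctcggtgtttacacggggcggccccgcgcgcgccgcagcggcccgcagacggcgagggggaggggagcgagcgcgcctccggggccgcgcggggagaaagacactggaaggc
Sox1: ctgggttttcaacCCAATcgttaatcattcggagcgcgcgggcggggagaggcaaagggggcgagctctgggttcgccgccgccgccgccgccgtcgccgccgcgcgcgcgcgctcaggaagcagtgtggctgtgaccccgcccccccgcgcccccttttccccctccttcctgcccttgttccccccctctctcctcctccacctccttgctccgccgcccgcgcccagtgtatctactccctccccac
Sox14: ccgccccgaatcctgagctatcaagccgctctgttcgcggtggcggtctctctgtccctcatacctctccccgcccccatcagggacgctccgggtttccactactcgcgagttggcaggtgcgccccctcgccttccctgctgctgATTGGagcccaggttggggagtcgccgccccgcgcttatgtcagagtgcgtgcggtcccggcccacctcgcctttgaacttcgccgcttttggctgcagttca
Sox2: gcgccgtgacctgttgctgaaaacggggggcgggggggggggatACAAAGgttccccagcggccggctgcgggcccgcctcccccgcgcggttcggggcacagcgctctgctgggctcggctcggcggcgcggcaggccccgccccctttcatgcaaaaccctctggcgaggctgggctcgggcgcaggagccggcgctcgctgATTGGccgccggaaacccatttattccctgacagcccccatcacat
Sox4: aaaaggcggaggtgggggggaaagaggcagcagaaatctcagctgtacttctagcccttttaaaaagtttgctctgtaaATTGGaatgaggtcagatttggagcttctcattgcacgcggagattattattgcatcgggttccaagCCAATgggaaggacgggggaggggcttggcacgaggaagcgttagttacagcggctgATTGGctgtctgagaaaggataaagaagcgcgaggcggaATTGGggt

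Sox motifs were in these windows at about the share of all promoters, and CCAAT boxes were common. On either strand, AACAAT, one of the sequences that Sox proteins bind, was in 0 of the 7 windows, against 8.22% of 21262 promoter windows. ACAAAG, the other Sox sequence searched, was in 1 of the 7, that of Sox2, 206 to 201 bp before the start, against 14.9% of all windows. CCAAT, the core of the box bound by NF-Y, was in 6 of the 7 against 35.4% of all windows, and Sox4 held 4 copies, the nearest 8 to 4 bp before its start. ATGCAAAT, the octamer bound by POU factors, was in 1 of the 7, that of Sox12, against 1.58% of all windows. CCAAT and ATGCAAAT were searched after the sequences had been seen, the motifs do not overlap one another in these windows, and a match of letters is a description and not a bound site. The windows were rich in CpG: Sox12 had 35 CpG dinucleotides in its 250 bases, Sox1 29, Sox2 27, Sox14 23, Sox21 and Sox11 17 each and Sox4 11, and the median over 17491 genes was 10.

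Peaks were called by the authors for each antibody library against the input of its pellet. The lists held 7706 to 85415 peaks for Sox9 and 25811 to 88496 for H3K4me3, and in every list at least 92.5% of the peaks had the lowest height the list contains, which is called 1 step below. A gene was scored as having a peak at an end when a summit lay within 1000 bp of its start or its 3′ end, and in its window when a summit lay in the body or within 10000 bp on either side. Over all genes and libraries, 9.98% of gene and library pairs had a Sox9 peak at an end and 17.3% had an H3K4me3 peak there, so the control mark itself was sparse. The 8 genes are short, from 2065 bp (Sox3 and Sox14) to 8451 bp (Sox11), against a median of 17170 bp over all genes. Values for the 5034 genes of at most 5000 bp are therefore given beside them. No other protein-coding gene lies in any of the 8 windows, but 6 of them hold a noncoding gene, and the bodies of Sox1, Sox2, Sox21 and Sox4 are overlapped by Sox1ot, Sox2ot, Gm4675 and Gm46405.

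Peaks were spread thinly over the members, and more libraries had H3K4me3 than Sox9 at their ends. Of the 64 pairs of member and library, 13 (20.3%) had a Sox9 peak at an end and 28 (43.75%) an H3K4me3 peak; the same shares over genes of at most 5000 bp were 7.75% and 13.0%. At least 1 of the 8 Sox9 libraries had a peak at an end of 7 of the 8 members (51.5% of all genes), and at least 1 of the 8 H3K4me3 libraries at an end of all 8 (68.3% of all genes). In at least 3 of 8 libraries the counts were 3 of 8 for Sox9 (6.32% of all genes), namely Sox3, Sox11 and Sox12, and 6 of 8 for H3K4me3 (19.5% of all genes), the other two being Sox21 with 2 and Sox4 with 1. No member reached 4 of 8 with Sox9 (1.58% of all genes did), and 4 of 8 members, Sox2, Sox3, Sox11 and Sox12, did so with H3K4me3 (7.53%). The members' promoters are richer in CpG than most. Among 967 short genes with at least as many CpG as Sox4, 15.4% of pairs had a Sox9 peak and 26.7% an H3K4me3 peak at an end, against 17.9% and 42.9% over the 7 members with a promoter window.

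**Figure D1:**
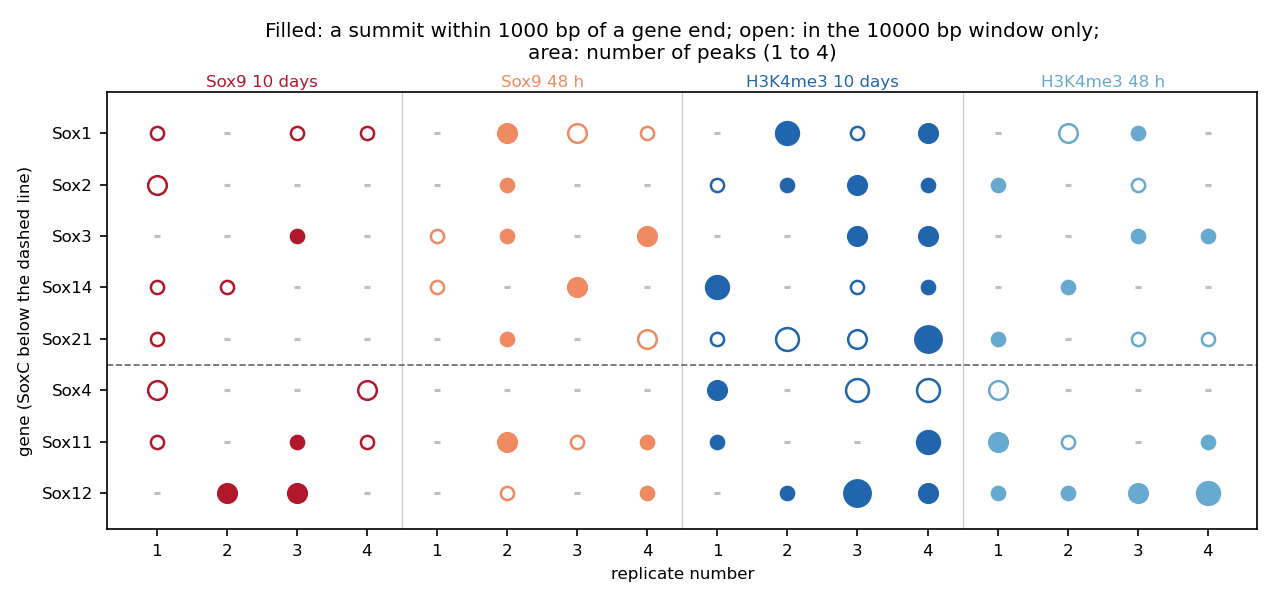
Peaks at the 8 genes (rows) in the 16 libraries (columns, replicate numbers within each antibody and time). A filled circle is a peak at a gene end, an open circle a peak only elsewhere in the window, a dash no peak, and the area gives the number of peaks (1 to 4). The Sox12 row is filled in 7 of 8 H3K4me3 libraries, and the H3K4me3 column of replicate 4 at 10 days is filled for 7 of 8 genes.

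Among the SoxB1 genes, Sox1 stood out by a region inside its body. Sox1 (8:12395519-12399555, plus strand) had Sox9 at an end in none of the 10-day libraries and in 1 of the 4 from 48 h, with its summit 89 bp after the start. Its window held Sox9 peaks in 3 of 4 libraries at each time; 18.2% of all genes and 3.02% of those of at most 5000 bp had them in 6 or more of 8. Of these, 4 libraries (replicates 3 and 4 at 10 days, 2 and 3 at 48 h) had peaks that merged into the region 8:12396460-12397139. It lies 941 to 1620 bp after the start. The peaks formed a chain of overlaps, without a base common to all 4. H3K4me3 peaks of replicate 2 at both times fell in the same region, so 6 of 16 libraries had a peak there. H3K4me3 at an end was found in 2 of the 4 libraries from 10 days and 1 of the 4 from 48 h.

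Sox2, the pluripotency factor, had little Sox9 signal. Sox2 (3:34649995-34652461, plus strand) had a Sox9 peak at an end only in replicate 2 at 48 h, and its window held one in 1 of 4 libraries at each time. H3K4me3 was present at an end in 3 of the 10-day libraries and 1 of those from 48 h, and in the window in 4 of 4 and 2 of 4. Of the 4 H3K4me3 libraries with a peak at an end, 3 had it at the start, none nearer than 662 bp, and 1 at the 3′ end. The region 3:34650837-34651081, 842 to 1086 bp after the start, had peaks in 2 Sox9 and 2 H3K4me3 libraries.

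Sox3, the X-linked SoxB1 gene, had the most libraries with Sox9 at an end among the SoxB genes. Sox3 (X:60891366-60893430, no strand in the table used) showed Sox9 at an end in replicate 3 at 10 days and in replicates 2 and 4 at 48 h. H3K4me3 was there in 2 of 4 at each time. The region X:60892051-60892271 was shared by 1 Sox9 and 2 H3K4me3 libraries. Because the body is 2065 bp long, the ends within 1000 bp cover nearly all of it.

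The SoxB2 repressor genes differed in where their peaks lay. Sox14 (9:99874106-99876170, minus strand) carried Sox9 at an end only in replicate 3 at 48 h. H3K4me3 was there in replicates 1 and 4 at 10 days and in replicate 2 at 48 h. Its region 9:99874965-99875524, 646 to 1205 bp after the start, held peaks of 2 Sox9 and 3 H3K4me3 libraries. Replicate 1 at 10 days had 3 H3K4me3 peaks on Sox14, each of 2 steps, with the nearest summit 22 bp after the start. Sox21 (14:118233233-118237030, minus strand) had Sox9 at an end only in replicate 2 at 48 h, and H3K4me3 in 1 of 4 libraries at each time. Its H3K4me3 peaks lay mostly deeper in the body or outside: the window held one in all 4 libraries from 10 days and in 3 from 48 h. A count of 7 of 8 or more was reached by 26.2% of all genes and by 5.01% of those of at most 5000 bp.

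Among the SoxC genes, Sox12 had the most libraries with peaks at an end of all 8 members, with both antibodies together. Sox12 (2:152393611-152398046, minus strand) carried H3K4me3 at an end in replicates 2, 3 and 4 at 10 days and in all 4 libraries from 48 h. This count of 7 of 8 was reached by 0.133% of all genes and by 0.179% of genes of at most 5000 bp. In 6 of the 7 libraries the peak was at the start, and in replicate 4 at 10 days it was at the 3′ end. Sox9 was at an end in replicates 2 and 3 at 10 days and in replicate 4 at 48 h, always at the start, with the nearest summit 77 bp away. The region 2:152397657-152398079, from 33 bp before to 389 bp after the start, held peaks of 3 Sox9 and 3 H3K4me3 libraries, the latter all from 48 h. These peaks also formed a chain, without a base common to all of them. All 3 pellets with Sox9 at an end of Sox12 also had H3K4me3 there, 4 pellets had H3K4me3 alone and 1 had neither.

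Sox4 was at the other extreme. Sox4 (13:28948919-28953699, minus strand), the SoxC gene best known from injured and malignant epithelia, had no Sox9 peak at an end in any of the 8 lists, and H3K4me3 in 1 of 8, replicate 1 at 10 days, 545 bp after the start. Its window held Sox9 peaks in replicates 1 and 4 at 10 days and in 0 of 4 libraries from 48 h, a pattern (at least 2 of 4 against 0 of 4) met by 11% of all genes. H3K4me3 was in the window in replicates 1, 3 and 4 at 10 days and replicate 1 at 48 h. The regions 13:28952269-28952446 and 13:28951966-28952108, 1253 to 1733 bp after the start, lay beyond the 1000 bp limit and held peaks of 3 and 2 libraries. A further pair of H3K4me3 libraries at 10 days had peaks at 13:28958887-28959068, about 5 kb upstream and inside the noncoding gene Gm46405. Because these positions fall outside the limit, the count at gene ends describes Sox4 less fully than the map of summits.

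Sox11 (12:27334268-27342718, minus strand), the SoxC gene most tied to neurons and neuroblasts, lay between them. Sox9 was at an end in replicate 3 at 10 days and in replicates 2 and 4 at 48 h, and H3K4me3 in 2 of 4 libraries at each time. The Sox9 peaks of replicates 3 and 4 at 48 h shared 12:27341614-27341878, 840 to 1104 bp after the start. The H3K4me3 peaks of replicates 1 and 4 at 10 days shared 12:27341968-27342257, 461 to 750 bp after it.

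**Figure D2:**
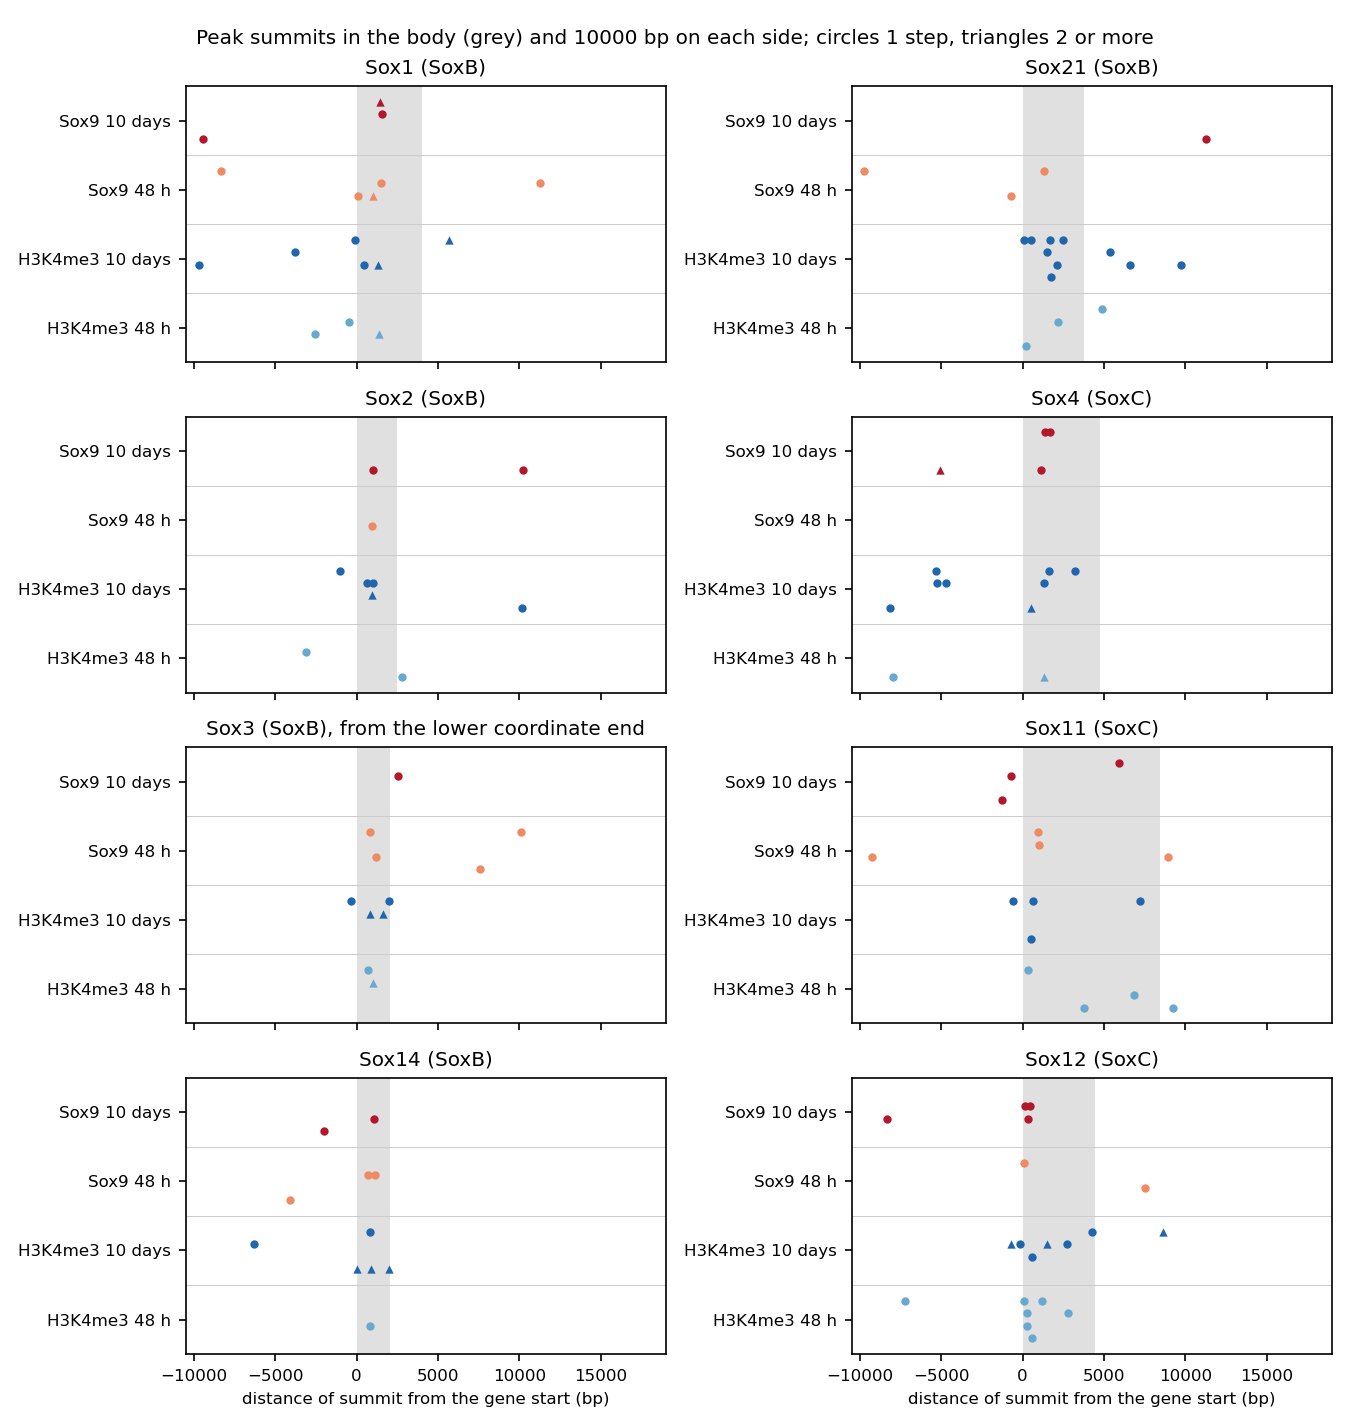
Peak summits at each gene by distance from the gene start (x axis, bp along the gene; Sox3 from its lower coordinate), in a lane per antibody and time, with replicates 1 to 4 from bottom to top of a lane. The grey band is the gene body, circles are peaks of 1 step and triangles of 2 or more. Summits gather in or beside the grey bands, at Sox1 941 to 1620 bp after the start, and at Sox12 near the start itself.

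Direct overlap with the promoter windows (250 bases before to 50 after the start) was rare. A Sox9 peak overlapped the window of 2 of 7 members in at least 1 of 8 libraries (18.9% of 21262 windows): Sox12 in replicate 3 at 10 days and replicate 4 at 48 h, and Sox1 in replicate 2 at 48 h. The Sox1 peak and the Sox12 peak of replicate 3 at 10 days lay wholly inside the gene. They did not reach the 250 bases before the start that are shown above. An H3K4me3 peak overlapped the promoter window of 4 of 7 members (35.8% of all windows), namely Sox12, Sox14, Sox1 and Sox21. In the Sox12 pellet of replicate 4 at 48 h, the Sox9 peak (2:152397898-152398079) and the H3K4me3 peak (2:152397877-152398000) overlapped each other just inside the gene, and only the Sox9 peak reached across the start. The windows of Sox2, Sox4 and Sox11 were overlapped in 0 of 16 libraries.

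SoxB and SoxC were set side by side by antibody and time, as counts without a test, since members are single genes that share their libraries. With the Sox9 antibody at 10 days, 1 of 20 SoxB pairs (5%) and 3 of 12 SoxC pairs (25%) had a peak at an end, beside 12.3% over all genes. At 48 h they were 6 of 20 (30%) and 3 of 12 (25%), beside 7.64%. With this rule SoxC stood at the same share at both times, and SoxB at a lower share at 10 days. The shares depended on what counts as an end: with any overlap of a peak in place of its summit, SoxB had 3 of 20 (15%) and 6 of 20, and SoxC 3 of 12 and 4 of 12 (33.3%), at 10 days and 48 h, so that SoxC minus SoxB at 48 h turned from -5 to 3.33 percentage points. Sox2 and Sox14 then had equal counts at both times. Within 3000 bp of an end the counts were 6 of 20 (30%) and 8 of 20 (40%) for SoxB and 7 of 12 (58.3%) and 4 of 12 (33.3%) for SoxC, with equal counts at both times for Sox1 and Sox2 and Sox14 the higher at 10 days. By replicate, the number of SoxB genes, of 5, with Sox9 at an end was 0, 0, 1 and 0 at 10 days and 0, 4, 1 and 1 at 48 h, so the groups overlapped. The only pair at 10 days was Sox3 in replicate 3, without which it was 0 of 15. Replicate 2 at 48 h decided the higher number: without it 2 of 15 SoxB pairs (13.3%) and 2 of 9 SoxC pairs (22.2%) remained at 48 h. The SoxC share at 10 days rested likewise on replicate 3, without which it was 1 of 9 (11.1%), and at 48 h on replicate 4, without which it was also 1 of 9.

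With H3K4me3 at 10 days, the share at ends was 50% in both families (10 of 20 and 6 of 12), beside 22.1% over all genes. At 48 h it was 6 of 20 (30%) for SoxB and 6 of 12 (50%) for SoxC, beside 12.5%. By replicate, 1, 2, 2 and 5 of the 5 SoxB genes had H3K4me3 at an end at 10 days and 2, 1, 2 and 1 at 48 h. Of the 3 SoxC genes, the numbers were 2, 1, 1 and 2 at 10 days and 2, 1, 1 and 2 at 48 h. The 4 values of the times overlapped in both families. With peaks of 2 or more steps only, SoxC minus SoxB at 48 h was -5 percentage points, where it was 20 with all peaks. Replicate 4 at 10 days had a peak at an end of 7 of the 8 members, all but Sox4, and 18 of the 73 H3K4me3 peaks, although its list was the second shortest of the 4 at that time with 32381 peaks. Without it 5 of 15 SoxB pairs (33.3%) and 4 of 9 SoxC pairs (44.4%) were left at 10 days.

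Counts over the whole window gave a further difference for SoxB with Sox9. The number of Sox9 peaks in the 5 SoxB windows was 5, 1, 2 and 1 at 10 days and 2, 5, 4 and 5 at 48 h. Divided by the number of genes and by the length of the list, this was 0.133 ± 0.0742 peaks per gene per 10000 list peaks (SD, n = 4) at 10 days, between 0.0504 and 0.230. At 48 h it was 0.498 ± 0.0899 (SD, n = 4), between 0.377 and 0.594, so all 4 libraries at 48 h lay above all 4 at 10 days. The raw numbers overlapped, so the separation is in the rate and not in the number. The libraries also overlapped in the share of SoxB windows with a Sox9 peak, 40% at 10 days and 55% at 48 h. Of the family measures compared, only this rate separated the times. In Sox9 peaks per 10000 list peaks, 1.48% of all genes, taken singly, had all 4 libraries of a time above the other 4. The share over sets of 5 genes was not computed. The lists of replicates 1 and 4 at 10 days (85415 and 39691 peaks) were longer than every list at 48 h (7706 to 26520), whereas replicates 2 and 3 (14793 and 17382) lay within that range. Leaving out each library in turn, the mean at 10 days stayed between 0.101 and 0.161, and that at 48 h between 0.466 and 0.538. Over genes of at most 5000 bp the same rate was 0.126 at 10 days and 0.143 at 48 h. For SoxC it was 0.349 ± 0.204 at 10 days and 0.245 ± 0.184 at 48 h (SD, n = 4), with overlapping libraries and replicate 1 at 48 h at 0. SoxC minus SoxB was therefore 0.22 at 10 days, with SoxC higher in 3 of 4 libraries, and -0.25 at 48 h, with SoxB higher in 3 of 4 and both values equal in 1. The size of these differences depended on the flank. With 5000 bp on each side in place of 10000, SoxC minus SoxB was 0.167 at 10 days and -0.0985 at 48 h, and with 20000 bp it was 0.248 and -0.428. The SoxB rate at 5000 bp was 0.116 at 10 days (0.0468 to 0.230) and 0.312 at 48 h (0.237 to 0.377), and at 20000 bp it was 0.226 (0.101 to 0.345) and 0.705 (0.452 to 0.877), so the libraries of the times stayed apart, narrowly at 5000 bp. The sign at 10 days turned, to -0.158, when only the few peaks of 2 or more steps were counted. With H3K4me3 the rate was 0.350 ± 0.228 for SoxB and 0.340 ± 0.337 for SoxC at 10 days, and 0.171 ± 0.0343 and 0.365 ± 0.204 at 48 h (SD, n = 4), and the libraries of the families overlapped at both times. Without replicate 4 at 10 days the SoxC value there was 0.178 and the SoxB value 0.260.

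**Figure D3:**
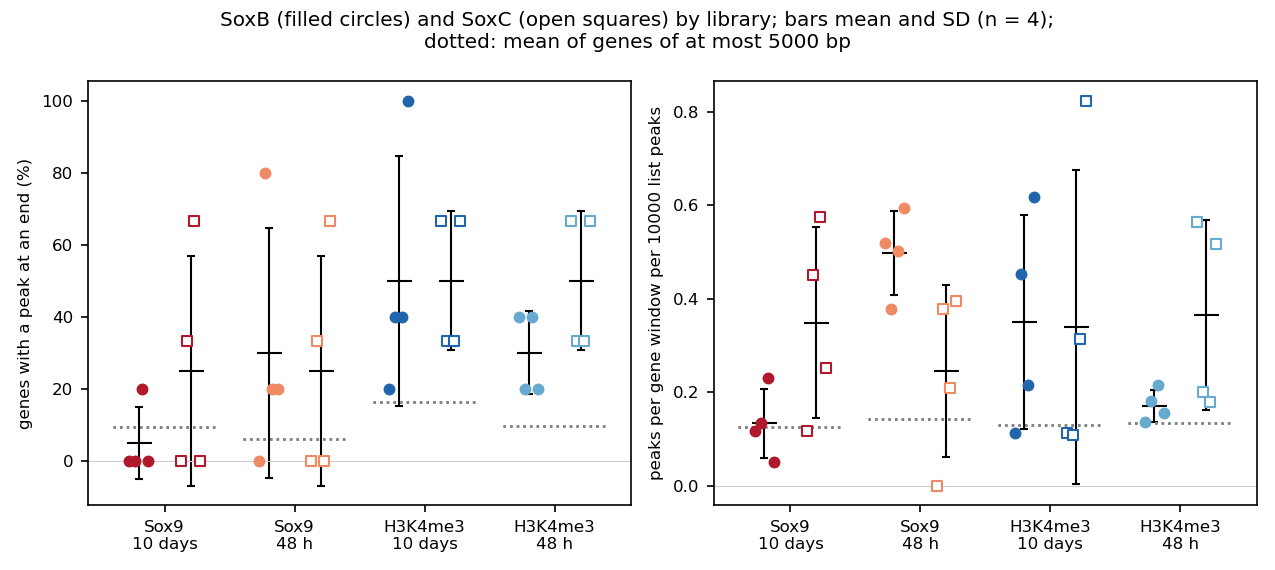
Left, percent of the SoxB (filled circles) and SoxC (open squares) genes with a peak at an end in each library. Right, peaks per gene window per 10000 peaks of the list; black bars are the mean and SD of 4 libraries, and dotted lines the mean over genes of at most 5000 bp. The SoxB libraries with the Sox9 antibody run from 0.0504 to 0.230 at 10 days and from 0.377 to 0.594 at 48 h; elsewhere the times overlap.

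No single member passed a test of time or antibody. Each of the 21883 genes was tested between the times by exact permutation (two-sided, all arrangements of the 8 libraries), for which the smallest possible p is 0.0286, with Benjamini-Hochberg adjustment over all genes. In Sox9 peaks at ends, 0 of 8 members had an unadjusted p under 0.05 (0.0228% of all genes), and likewise 0 of 8 in H3K4me3 peaks at ends (0.238%). In peaks per 10000 over the window it was again 0 of 8 for Sox9 (1.48%) and 0 of 8 for H3K4me3 (1.94%). No gene at all had an adjusted p under 0.05 in these comparisons, in which 5, 52, 324 and 425 genes had an unadjusted p under 0.05. With a smallest possible p of 0.0286, the adjusted p can fall under 0.05 only if a large part of all 21883 genes reach that minimum. The adjusted result was thus set by the number of libraries and says nothing about single genes. A split short of all 4 libraries against none cannot reach an unadjusted p under 0.05 in peaks at ends, so differences of 1 or 2 libraries at a single gene were not detectable at this number of libraries.

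The member values behind the SoxB rate were as follows. Sox9 peaks in the Sox1 window came to 0.236 per 10000 at 10 days and 0.650 at 48 h (exact permutation p = 0.229, adjusted p = 1). For Sox3 the means were 0.144 and 0.716 (exact permutation p = 0.257, adjusted p = 1). Sox14 went from 0.198 to 0.637 and Sox21 from 0.0293 to 0.391, both with an exact permutation p of 0.429 and an adjusted p of 1. A peak weighs more in a short list. In replicate 1 at 48 h (7706 list peaks), 1 peak counted 1.30 at Sox3 and 1 peak counted 1.30 at Sox14. Both peaks lay outside the gene body. In replicate 1 at 10 days (85415 list peaks), 1 peak counted 0.117 at Sox14. The Sox2 means were close, at 0.0585 and 0.0943. All 5 SoxB means were thus lower at 10 days, and the median difference (10 days minus 48 h) was -0.41 over SoxB and 0 over all genes. The 5 genes share libraries and list lengths, so they are not 5 separate observations. At Sox2 the raw number of peaks was 2 at 10 days and 1 at 48 h, so its lower mean came from the division by list length. The raw numbers of the other SoxB genes were lower at 10 days. With 5000 bp on each side, the difference was -0.14 for Sox1, where it was -0.41 with 10000 bp, and -0.0989 for Sox3, where it was -0.57. In SoxC, Sox11 was at 0.236 and 0.493, whereas Sox12 (0.626 and 0.243) and Sox4 (0.185 and 0) had the higher mean at 10 days.

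Between the antibodies, H3K4me3 was at an end in more libraries than Sox9 for all 8 members, and the share over all genes was higher as well. Within pellets, a two-sided exact sign-flip permutation over 8 pellets gave 0 of 8 members an unadjusted p under 0.05 at ends (0.0777% of all genes) and 0 of 8 in peaks per 10000 (3.02%). Sox12 had the lowest p at ends, with peaks in 0.375 of the libraries for Sox9 and 0.875 for H3K4me3 (exact permutation p = 0.125, adjusted p = 1), H3K4me3 being alone in 4 pellets and Sox9 alone in 0. The change of that difference with time was tested by exact permutation of the pellets, with 0 of 8 members under 0.05 at ends (0.155% of all genes) and 0 of 8 in the window (1.91%). At Sox1 the Sox9 rate minus the H3K4me3 rate was -0.19 at 10 days and 0.43 at 48 h (exact permutation p = 0.143, adjusted p = 1).

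The 115 peaks in the 8 windows, 42 of Sox9 and 73 of H3K4me3, were concentrated in the gene bodies. Per kb, bodies held 6.03 times as many Sox9 peaks as the flanks and 8.49 times as many H3K4me3 peaks, whereas over genes of at most 5000 bp the ratios were 2.29 and 2.43. The ratios were 7.51 and 10.8 for SoxB and 4.85 and 6.48 for SoxC. Of the 115 peaks, 69 lay in a body, and the fold enrichment given by the authors was below the median of its list for 67 of those 69. The matching count over other genes is not given here, so this is no trait particular to the members. The median percentile of fold in the list was 7.62 in bodies and 31.4 outside. The peaks were narrow, with a median width of 138 bp and a range of 94 to 363 bp, where the medians of the 16 lists were 122 to 163 bp.

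The local background that the caller used at each peak was high where the members' peaks were dense. Solved from the deposited fold and p-value, it was 5.67 times the median of its list under the 69 peaks in bodies (median), above the list median for 68 of 69, and 1.79 times under the 46 peaks outside. In bodies the median was 4.71 times for SoxB and 6.38 times for SoxC. Over genes of at most 5000 bp it was 3.33 times for Sox9 and 3.51 times for H3K4me3 in bodies, and 1.43 and 1.50 times outside. In the bodies of those genes it was above the list median for 2538 of 2885 Sox9 peaks and 4450 of 4997 H3K4me3 peaks. Most peaks in short gene bodies thus shared the raised background. Peaks in these bodies were therefore called over raised background, with both antibodies, and the part of that background in the number of peaks was not tested. Since 97 of the 115 peaks had 1 step, the raised background largely restates the low fold given above and is not a separate result.

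**Figure D4:**
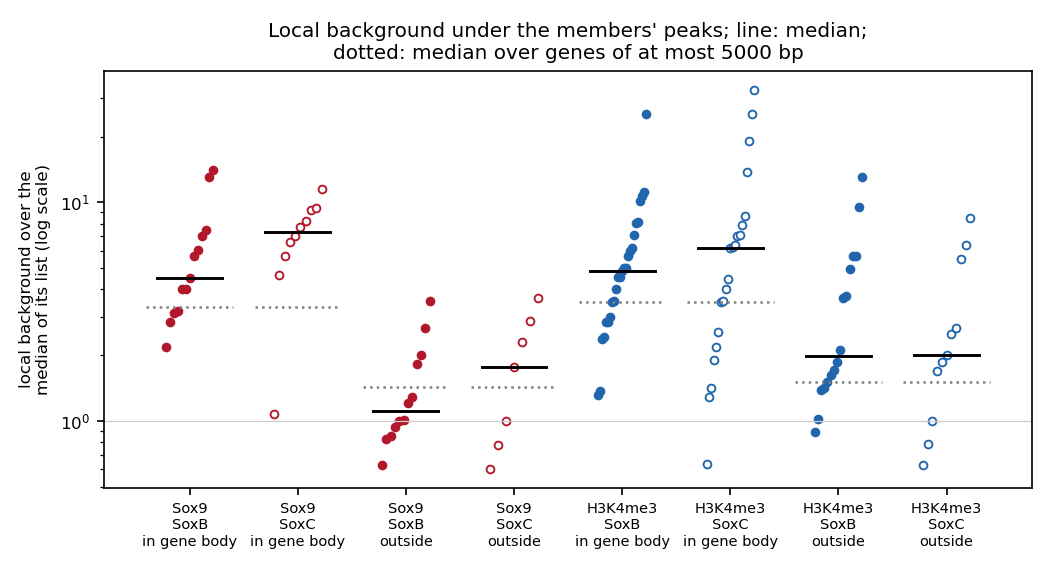
Local background under each peak at the members, divided by the median background of its list (log axis), split by antibody, family and position; each point is a peak, black lines are medians and dotted lines the medians over genes of at most 5000 bp. Points in gene bodies lie mostly above those outside, with medians of 4.52 and 1.11 for SoxB under Sox9.

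Most of these peaks had the lowest height, though a smaller share of them than in the lists. Of the 115, 97 had 1 step and 18 had 2 or more, 15 of them H3K4me3 peaks. Of the 73 H3K4me3 peaks 58 had 1 step, beside 92.5 to 97.1% of the peaks of the H3K4me3 lists. Of the 42 Sox9 peaks 39 had 1 step, beside 95.9 to 97.8% in the Sox9 lists. What lies behind the difference was not tested. The 3 Sox9 peaks of 2 steps were at Sox1 (replicate 4 at 10 days and replicate 2 at 48 h, both in the merged region described above) and upstream of Sox4 (replicate 1 at 10 days, -5052 bp from the start). A single H3K4me3 peak reached 3 steps, at Sox1 in replicate 2 at 10 days, again in the merged region. The Sox12 start region, in contrast, held only peaks of 1 step.

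Positions recurred between libraries more often at the members than over the genome, as a description. The same shares were not computed for short or CpG-rich genes, and the part of peak density in the members' shares was not tested. When the peaks of the 8 Sox9 lists were merged, 5 of 35 regions in the members' windows (14.3%) had peaks of 2 or more libraries, against 3.27% of 215098 regions genome-wide; with an overlap of at least 0.5 of the shorter peak it was 2 of 39 (5.13%) against 2.33%. For H3K4me3 it was 11 of 60 (18.3%) against 5.24%. With both antibodies merged it was 16 of 82 (19.5%) against 7.27%, 7 of 48 at SoxB and 9 of 34 at SoxC. The 2 regions with peaks of 6 libraries were those of Sox1 and Sox12, both chains of overlapping peaks without a base common to all. With an overlap of at least 0.5 of the shorter peak, the most libraries in a member region was 3 for Sox9, against 4 with 1 bp. With both antibodies merged it was 6 under either rule.

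Genes related to the members by family or function were described as lists of counts. No gene of the table passed the adjusted test in the comparisons above, so that test says nothing about these genes in particular. Over all genes, 9.98% of pairs had Sox9 and 17.3% H3K4me3 at an end, and several shares below lie near these. For the 12 other Sox genes, 18 of 96 pairs (18.75%) had Sox9 at an end and 22 of 96 (22.9%) had H3K4me3. The members had 20.3% and 43.75%, so their Sox9 share was not particular to SoxB and SoxC. Of the other Sox genes, Sox8, a SoxE gene, had Sox9 at an end in 4 of 8 libraries (at least 4 in 1.58% of all genes). Sox17, an endothelial and endodermal factor, had H3K4me3 in 4 of 8 (at least 4 in 7.53% of all genes). Among 8 targets and partners of SoxC the shares were 8 of 64 (12.5%) and 13 of 64 (20.3%), with Pou3f2, a neural POU factor, at 4 of 8 H3K4me3 libraries. Among 10 targets and partners of SoxB they were 8 of 80 (10%) and 20 of 80 (25%), with 5 of 8 H3K4me3 libraries at Pou3f1, a POU factor of neural and glial cells, and 4 of 8 at Nes, which encodes the progenitor filament nestin. At the Sox9 gene itself, Sox9 was at an end in 3 of 8 libraries and H3K4me3 in 1 of 8.

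Marker genes of the sorted cells and of other kidney cells had the mark at their ends at shares below that of all genes, and in their windows at shares above it. H3K4me3 was at an end in 13 of 96 pairs (13.5%) for 12 tubule and injury markers, 5 of 48 (10.4%) for endothelial, 5 of 40 (12.5%) for stromal, 3 of 48 (6.25%) for immune and 8 of 48 (16.7%) for neural markers, beside 17.3% over all genes. In the windows, which grow with gene length, the shares were 75% for tubule, 81.25% for endothelial, 77.5% for stromal, 70.8% for immune and 79.2% for neural markers, beside 59.9% over all genes. Neither measure set the tubule markers apart from those of the other cell types, and RNA was not measured.

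Genes with a pattern like a member's were sought over the 16 libraries, among members with a peak at an end in at least 4. The presence at ends was identical to that of Sox1 in all 16 libraries for Atpaf1 and Pigr, to that of Sox2 for Pgap6 and to that of Sox14 for Nup205. Sec63 matched Sox3 in 15 of 16, and 4 genes, Adra1d, Afdn and Eif4g1 first by symbol, matched Sox11 in 14. Sox12 had no near match: the best of all genes matched in 12 of 16 libraries, and 7 genes reached this. Agreement also counts shared absence, so members with few peaks are matched more easily. Sox1 and Sox14 had a peak at an end in 4 of 16 libraries, Sox2 in 5 and Sox12 in 10. Libraries of unequal list length are shared by all genes in this measure.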

How the data were processed

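Antibody libraries (16: Sox9 and H3K4me3, 4 at each of 2 times) had a peak list each. The tools were MACS3, Bowtie, Bowtie2 and Partek 10, on mm10, per the submitters' processing notes; for read filters, duplicates and thresholds, the settings are not given in the sources used here. The authors deposited a score per peak, which was not used, a ratio (fold enrichment over local background) and −log10 p and q values, used only within a list. Depth per library is unknown, so precision rests on the 4 replicates.

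The peaks of the autosomes, X and Y were assigned by summit to RefSeq genes of GRCm38.p6; strand came from the promoter table, for 7 of the 8 genes. Pileup and background were solved from fold and p under a Poisson tail; at least 99.6% of the peaks of each list lay within 0.05 of a whole step. Exact permutations and Benjamini-Hochberg adjustment were run over 21883 genes and tested on simulated data. All 8 members were named, other Sox genes and targets with a peak at an end in at least 4 of 8 libraries, and up to 3 genes most like each member, ties by symbol. The members and lists were chosen with earlier results of these data known.

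Sox9 and H3K4me3 libraries were paired by pellet, per the labels' protocols; the correlation of their deviations from group means ran from -0.0064 to 0.0195. Software was SciPy 1.17.1, pandas 2.3.3 and NumPy 2.4.6 under Python 3.11.15, with plots by Matplotlib 3.10.9. No protein sequence was used.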

Additional observations from a re-analysis of the deposited data

Results flagged for a closer look

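In 4 of 36 sets of 4 replicate values, 1 library differed from 3 equal ones. The rule compares the gap with the range, so it flags any such set, however small the difference. Its nominal rate of about 1 in 20 does not hold here, since counts and percentages over 3 or 5 genes can take few values. With the Sox9 antibody at 10 days, replicate 3 had a peak at an end of 20% of the SoxB genes (1 gene, Sox3), where the other libraries had 0. In the same group replicate 2 had Sox9 peaks in the windows of 33.3% of the SoxC genes, where the others had 66.7%, and 2 peaks in them, where the others had 3 each. With H3K4me3 at 48 h, replicate 3 had peaks in the windows of 80% of the SoxB genes, where the others had 40%.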

How the results depend on the processing

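Of 310 values recomputed under other settings for the counts of calls, the family differences and the recurrent regions, 7 moved. The counts of calls among them were 0 under the main settings, and the adjusted counts could hardly move at this number of libraries. A family difference counted as moved only beyond its spread between libraries, so some changes of sign are not among the 7. With any overlap of a peak, SoxC minus SoxB for Sox9 at ends at 48 h went from -5 to 3.33 percentage points. The 7 of 310 is thus no measure of how stable the results are. With peaks of 2 or more steps only, SoxC minus SoxB became -5 percentage points for H3K4me3 at ends at 48 h, and in peaks per gene per 10000 it became -0.158 for Sox9 at 10 days, -0.637 for Sox9 at 48 h and -0.566 for H3K4me3 at 10 days; few peaks pass this limit. As raw numbers of peaks, it was 0.467 for Sox9 at 10 days and 0.533 for H3K4me3 at 48 h, a change of unit. With an overlap of at least 0.5 of the shorter peak, 2 Sox9 regions recurred in place of 5. Of 720 values for single members, 32 moved by more than the spread between replicates, 10 of them with a change of sign, another 17 changed sign within that spread, and 0 passed the threshold; the smallest p was 0.0571. With the replicate number as a block across times, 0 members and 0 genes passed, as without the pairing, but 4 pairs cannot give a p under 0.125; equal numbers across times share only a number (correlations -0.0073 to 0.0108). Lists of equal length were drawn 20 times.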
